A study of Mus musculus with 5 samples.

Results

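The Notch genes described here are 10 members of the pathway: the ligands Jag1, Jag2 and Dll1, the receptors Notch1, Notch2 and Notch3, the glycosyltransferase Lfng, the DNA-binding factor Rbpj, and the target genes Hes1 and Hey1. They were chosen by gene symbol and pathway role, though with earlier results of these data known. They are 10 of the 27998 genes counted in these libraries. The samples were whole testes of mice, all of them synchronized, dissociated with collagenase and then trypsin into single cells and sequenced as 5 single-cell libraries, 1 per time. The labels call the 0 h library Control and the libraries at 144, 350.4, 556.8 and 763.2 h EP1, EP2, EP3 and EP4, and the design text places all of them around stages VIII and IX of the seminiferous cycle. The sources used here do not state strain, age, number of animals or the synchronizing agent. With 1 library per time there is no replicate, so no difference has a test and every interval printed covers counting error only.

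Notch signalling passes between touching cells. A Jagged or Delta-like ligand on one cell pulls on a Notch receptor on its neighbour, the receptor is cut, and its inner domain enters the nucleus, where it joins Rbpj and switches on repressors of the Hes and Hey families. Fringe enzymes such as Lfng add sugars to the receptor and change which ligands it answers to. In the mouse testis, Sertoli cells, the somatic nurse cells of the tubule, are known to carry Notch receptors, and germ cells are known to carry Jagged ligands, an arrangement known for its bearing on Gdnf, the Sertoli growth factor that keeps spermatogonial stem cells.

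Rbpj binds DNA at a core of letters TGGGAA, so the 250 bases before each start site were searched for it on both strands. RefSeq promoters on GRCm38.p6 were found for 8 of the 10 members, and 2 of these, Lfng and Rbpj, held the core, against 24.1% of 27025 genes. The longer form GTGGGAA, which contains the core, was in 6.18% of genes and, among those 8 members, in Lfng. The Lfng promoter is printed because Lfng is the member with both forms of the motif, and its UMIs in Sertoli-like cells were 302, 155, 1 and 0 at the first 4 times. It covers chr5:140607091-140607319 on the plus strand and ends at the base before the start of the annotated gene, and capitals mark its 2 core matches. A match says that these letters are present and nothing about binding.
Lfng promoter: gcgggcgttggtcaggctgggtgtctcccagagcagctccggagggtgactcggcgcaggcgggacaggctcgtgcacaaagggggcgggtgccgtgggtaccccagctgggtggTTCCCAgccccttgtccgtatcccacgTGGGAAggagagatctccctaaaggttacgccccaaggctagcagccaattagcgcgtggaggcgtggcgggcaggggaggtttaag

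In the GENCODE annotation on GRCm38, Jag1 lies at chr2:137081456-137116644, Notch1 at chr2:26457903-26516663, Notch2 at chr3:98013527-98150361, Hes1 at chr16:30064384-30067796 and Hey1 at chr3:8663359-8667256. Jag2 lies at chr12:112907819-112929776, Dll1 at chr17:15367354-15376872, Notch3 at chr17:32120820-32166852, Lfng at chr5:140607320-140615545 and Rbpj at chr5:53466152-53657362. Dll1 overlaps A930024N18Rik, Notch3 overlaps Gm17276, and Rbpj overlaps Gm10441 and Gm40304. The sources used here do not state how the counting treated strand, so shared reads in those 3 members are uncertain.

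The libraries held between 7441 and 11987 barcodes and between 75578147 and 118147393 UMIs (unique molecular identifiers, each standing for 1 captured RNA molecule). After filtering, 38256 cells remained, between 4659 and 11086 per library. Clusters were named from marker genes, as "-like" classes, without the Notch genes, and 9.5% of cells stayed unnamed. Sertoli-like cells numbered 1587, 2376, 547, 53 and 15 at 0, 144, 350.4, 556.8 and 763.2 h, and all 14 Sertoli markers were above 0 at the first 4 times, with summed levels of 14820, 22330, 22810 and 18410 CPM (a gene's UMIs in a class divided by all UMIs of the class, times 1e6). Different clusters held most of the Sertoli class at different times (clusters 7, 14 and 9 at 0 h, clusters 28, 31 and 18 at 144 h, clusters 29 and 34 after that). The 15 cells at 763.2 h were too few for a level, so that time rests on 77 cells found when cells with up to 50% mitochondrial UMIs were kept and clustered anew. Here a gene counts as measured in a comparison when its pooled rate gives at least 5 UMIs in the smaller class, with at least 20 in both together, and "higher" or "lower" means past 2-fold. CPM are not corrected for gene length, so levels are compared for one gene between classes or times, not between genes. A lower level in a class cannot be told apart here from a change in which cells of it were captured.

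RNA free in the suspension can add to the counts of any class. At 0 h the 408 red-blood-cell-like cells, named for a cell type that should not carry Notch genes, held Notch2 at 81.4, Hes1 at 56.3, Rbpj at 39.7, Jag1 at 9.27, Notch1 at 5.96, Lfng at 4.63, Jag2 at 3.97 and Hey1 at 1.32 CPM, and no Notch3 UMI. Cluster 15, with 400 of these cells, also had Egr4 and Col1a1 among its 10 leading genes. Its second-highest score was that of undifferentiated spermatogonia, at 0.366 against 4.06 for red blood cells. Whether free RNA or other cells within the class gave its Notch counts was not tested. They also held the Sertoli markers at a summed 5574 CPM, against 14820 CPM in Sertoli-like cells. Levels at 0 h that were not above these values are called background below, since this comparison cannot tell them from free RNA. These values are not a floor for every class: Sertoli-like cluster 7 held Jag1 at 1.17 CPM at 0 h, under the 9.27 CPM here. A level called background may thus still hold the class's own RNA.

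**Figure D1:**
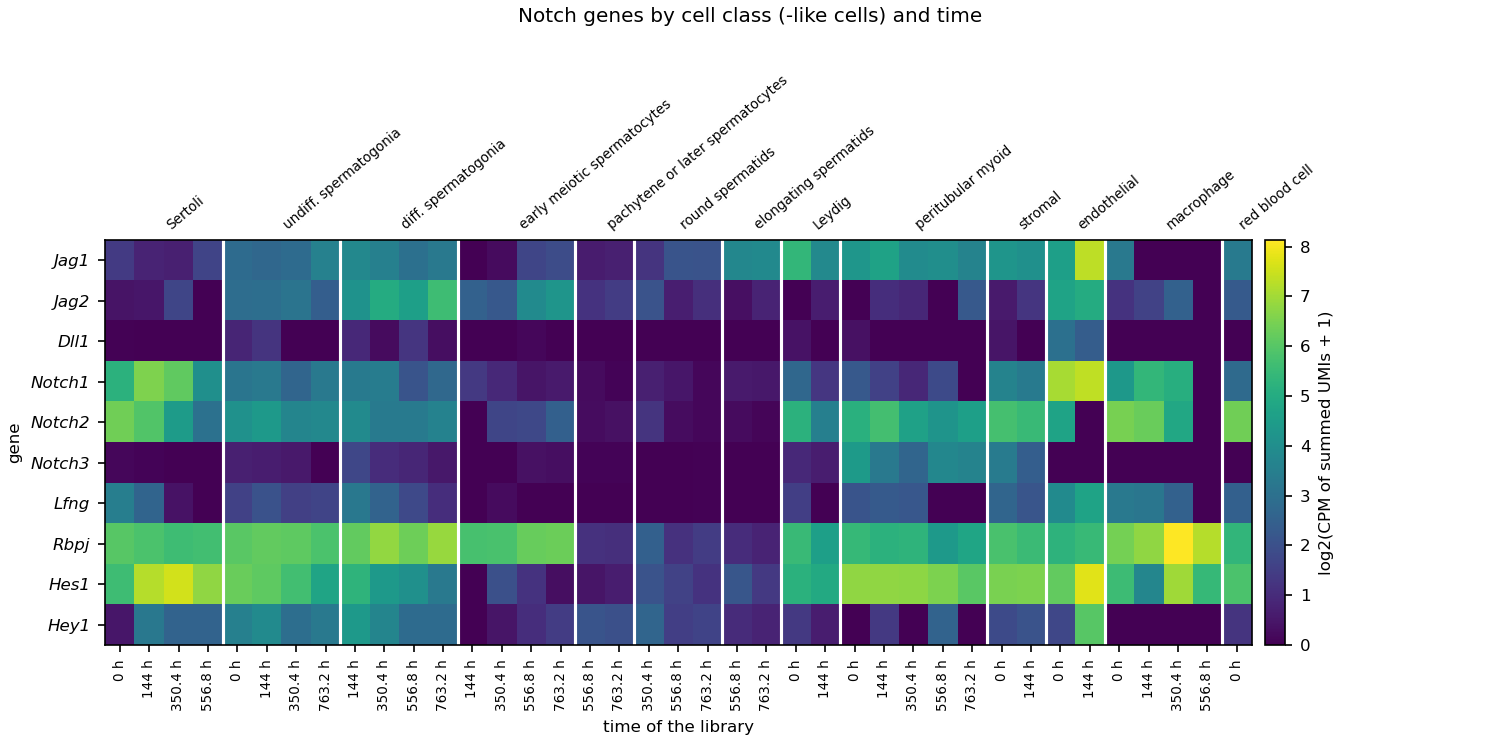
Levels of the 10 Notch genes (rows) in each named class and time with at least 20 cells (columns, times low to high within a class); colour is log2 of CPM of summed UMIs plus 1 and is to be compared along a row. Notch1 and Hes1 are bright in Sertoli-like cells, Notch1 and Jag1 in endothelial-like cells at 144 h (161 and 158 CPM), Jag2 in differentiating-spermatogonia-like cells, and Rbpj is dark in the germ classes after early meiosis and bright elsewhere.

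Notch1 and Notch2 were the receptors measured in Sertoli-like cells, and both were lower at 556.8 than at 350.4 h. Notch1, the receptor best known in Sertoli cells of mice, stood at 36.2, 93.0, 69.2 and 15.7 CPM at 0, 144, 350.4 and 556.8 h, from 1067, 2796, 218 and 22 UMIs. It was thus highest at 144 h, and its 0 h level was above that of red-blood-cell-like cells. At 144 against 0 h Notch1 was 2.57-fold higher (95% interval 2.395 to 2.76), and with a 10% mitochondrial limit it came just under 2-fold, at a log2 ratio of 0.98. At 350.4 against 144 h its ratio was 0.744, inside 2-fold, but past 2-fold lower with the 10% limit (ratio 0.2499) and when each cell weighed the same (log2 ratio -1.73). At 556.8 against 350.4 h it was lower, at a ratio of 0.228 (0.140 to 0.353). That last call was lost when each cell weighed the same, where its log2 ratio was -0.10. With the 50% mitochondrial limit Notch1 was at 35.2, 94.5, 92.2, 30.2 and 21.8 CPM over the 5 times, and the last 2 times had a ratio of 0.720 (0.464 to 1.10), which spans 1.

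Notch2, the other receptor, stood at 82.4, 59.2, 21.0 and 7.16 CPM at 0, 144, 350.4 and 556.8 h, from 2430, 1780, 66 and 10 UMIs. Its 0 h level did not exceed the 81.4 CPM of red-blood-cell-like cells, so it is read as background and no change from 0 h is drawn from it. A Notch2 UMI was present in 65.6% of Sertoli-like cells and 21.8% of red-blood-cell-like cells at 0 h, whose median depths were 14520 and 2440 UMIs. With both thinned to 1000 UMIs per cell the shares were 10.8% and 8.27%. For Notch1 the thinned shares were 2.77% and 0.66%, and the unthinned ones were 31.8% and 2.2%. At 350.4 against 144 h Notch2 was lower in Sertoli-like cells, at 0.354 (0.272 to 0.452), and at 556.8 against 350.4 h it was again lower, at 0.342 (0.157 to 0.6685). The second of these calls was lost with the 50% mitochondrial limit, at a log2 ratio of -0.84. Notch3 had 3, 2, 0 and 0 UMIs in Sertoli-like cells at the 4 times and could not be measured there.

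**Figure D2:**
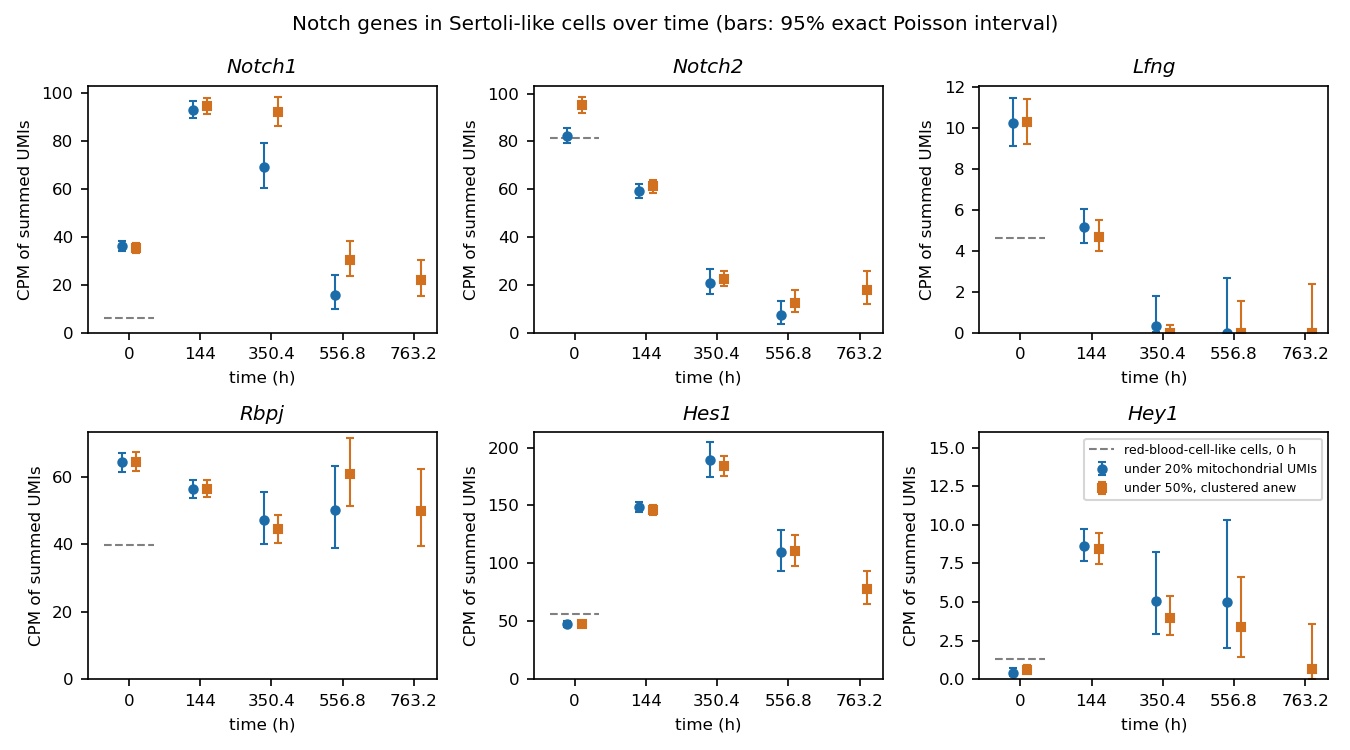
CPM of summed UMIs (y axes, 95% exact Poisson intervals as bars) of 6 Notch genes in Sertoli-like cells against time (x axes, h), with circles for cells under 20% mitochondrial UMIs and squares for cells under 50% clustered anew; the dashed line is the level in red-blood-cell-like cells at 0 h. Among the circles Notch1 is highest at 144 h at 93.0 CPM, Hes1 is highest at 350.4 h at 189 CPM, and Lfng reaches 0 UMIs at 556.8 h. Among the squares Notch1 is nearly as high at 350.4 h as at 144 h. The order of Hes1 at 144 and 350.4 h turned round in 2 of 10 alternatives.

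Both targets, like Notch1, were higher in Sertoli-like cells at 144 than at 0 h, and their later steps depended on the setting. Hes1, a repressor that Notch switches on in many tissues, stood at 47.2, 149, 189 and 110 CPM in Sertoli-like cells at 0, 144, 350.4 and 556.8 h, from 1393, 4466, 596 and 154 UMIs. The 0 h level was under the 56.3 CPM of red-blood-cell-like cells, and the levels at the 3 later times were all above it. At 144 against 0 h Hes1 was 3.15-fold higher (2.96 to 3.34). Its later ratios stayed inside 2-fold, at 1.27 (1.17 to 1.39) for 350.4 against 144 h and 0.583 (0.485 to 0.697) for 556.8 against 350.4 h. Over 10 alternatives the ratio at 350.4 against 144 h ran between 0.699 and 1.48, and 2 of them put it under 1. The ratio at 556.8 against 350.4 h was past 2-fold lower in cells of at least 5000 UMIs (log2 ratio -1.41) and without clusters of a median under 3000 UMIs (-1.02). It was above 1 when each cell weighed the same (0.33). With the 50% mitochondrial limit Hes1 was at 47.8, 146, 184, 110 and 78.1 CPM over the 5 times.

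Hey1, a related repressor, had 12, 260, 16 and 7 UMIs in Sertoli-like cells at 0, 144, 350.4 and 556.8 h, or 0.407, 8.65, 5.08 and 5.01 CPM. At 0 h it was thus at background, and at 144 h it was 21.3-fold higher (12.0 to 41.7). Since that ratio is over a background level, its size is loose: over the 10 alternatives tried it ran between 11.3-fold, with no doublets removed, and 75.7-fold, with free RNA subtracted. The ratio at 350.4 against 144 h was 0.587, inside 2-fold, but past 2-fold lower with the 10% limit (log2 ratio -1.88), with the 50% limit (-1.08) and when each cell weighed the same (-1.48). At 556.8 against 350.4 h it was 0.986. In the 77 Sertoli-like cells at 763.2 h under the 50% limit Hey1 had 1 UMI.

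Lfng, which tunes the receptor, had 302, 155, 1 and 0 UMIs in Sertoli-like cells over the same 4 times, or 10.2, 5.16, 0.318 and 0 CPM. The 0 h level was above the 4.63 CPM of red-blood-cell-like cells. At 144 against 0 h its ratio of 0.504 (0.412 to 0.613) lay just inside 2-fold, and passed it with the 50% limit and with free RNA subtracted (lowest ratio 0.456). At 350.4 against 144 h it was lower, at 0.0616 (0.00155 to 0.348), which rests on the single UMI at 350.4 h. With the 50% limit Lfng was at 10.3 and 4.68 CPM at 0 and 144 h and had no UMI at the 3 later times. Rbpj, through which every Notch receptor acts, varied little, at 64.3, 56.4, 47.3 and 50.1 CPM over the 4 times, with ratios between neighbouring times of 0.876, 0.839 and 1.06.

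Ligands were sparse in Sertoli-like cells. Jag1 had 48, 23, 2 and 3 UMIs at the 4 times, and its level of 1.63 CPM at 0 h was under the 9.27 CPM of red-blood-cell-like cells. Its ratio at 144 against 0 h, 0.470 (0.273 to 0.788), is a difference between background levels, and it turned round, to a log2 ratio of 0.80, with a 10% mitochondrial limit. Jag2 had 10, 12, 7 and 0 UMIs and Dll1 had 1, 0, 0 and 0.

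Of the 8 members measured in Sertoli-like cells at 144 against 0 h, 3 were higher (Notch1, Hes1 and Hey1) and 1 was lower (Jag1), where 29.7% of all measured genes were past 2-fold, 11.8% of them higher and 18.0% lower. The members' median log2 ratio was 0.02, against -0.06 over all measured genes. At 350.4 against 144 h 2 of 6 members were lower and none higher, with 18.5% of all genes past 2-fold (10.4% higher, 8.07% lower), and the medians were -0.60 for the members and 0.00 for all genes. At 556.8 against 350.4 h 2 of 5 were lower and none higher, with 21.1% of all genes past 2-fold (14.2% higher, 6.87% lower) and medians of -0.78 and -0.04. At 763.2 against 556.8 h, under the 50% limit, 0 of 4 were past 2-fold, where 9.80% of all genes were (5.49% higher, 4.31% lower). Between the outermost times, 763.2 against 0 h under the 50% limit, Notch2 at 0.188 (0.125 to 0.273) and Lfng, with 0 UMIs at 763.2 h against 343 at 0 h, were the 2 lower of 5, with 37.8% of all genes past 2-fold (14.9% higher, 22.9% lower). Since Notch2 and Hes1 in Sertoli-like cells were at background at 0 h, no change from 0 h is read from the Notch2 ratio, and that of Hes1 is over a background level. The ratio of Hes1 there was 1.63 (1.35 to 1.96) and that of Notch1 0.617.

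The Sertoli clusters differed among themselves in these genes. At 144 h the 474 cells of cluster 31 held Hes1 at 229, Notch1 at 123.5 and Hey1 at 17.9 CPM, and the 782 cells of cluster 28, of similar depth (medians of 22920 and 19280 UMIs), held Hes1 at 100.3, Notch1 at 79.7 and Hey1 at 0.894 CPM. The 1082 shallow cells of cluster 18 (median 1661 UMIs) held Hes1 at 96.2, Notch1 at 49.6 and Hey1 at 16.25 CPM. Hey1 UMIs at 144 h thus came from clusters 31 and 18 more than from cluster 28. At 0 h cluster 7 held Notch1 at 40.3 and Hes1 at 43.2 CPM, and cluster 14, which had the proliferation gene Mki67 at 359 CPM, held them at 33.9 and 59.0 CPM. Cluster 9, with a median mitochondrial share of 0.11%, held Notch1 at 5.79 and Rbpj at 13.4 CPM. At 350.4 h the 63 deep cells of cluster 29 had Hes1 at 225 and Notch1 at 91.2 CPM, and the 474 shallow cells of cluster 34 had 81.9 and 15.1 CPM.

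Other measures moved with the same times. In Sertoli-like cells a list of 14 genes switched on by dissociation, such as Fos and Jun, summed to 3717, 3346, 3072 and 1885 CPM at 0, 144, 350.4 and 556.8 h, cell division genes to 952, 206, 444 and 558 CPM, and genes of immature Sertoli cells to 1185, 290.5, 144 and 60.9 CPM. Median depth was 14520, 9856, 1460 and 26420 UMIs, and the median mitochondrial share was 6.89, 11.5, 9.67 and 17.0%. Their part in the Notch differences was not tested.

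Set against germ cells at the same time, Sertoli-like cells were higher in the receptor Notch1 and lower in the ligands Jag1 and Jag2 at 0, 144 and 350.4 h. Notch1 was at 36.2 CPM in Sertoli-like cells and 6.52 CPM in germ cells at 0 h, a ratio of 5.55 (4.63 to 6.69), at 93.0 and 5.97 CPM at 144 h, a ratio of 15.6 (13.9 to 17.5), and at 69.2 and 2.96 CPM at 350.4 h, a ratio of 23.4 (19.3 to 28.3). The germ cell level was near the 0 h background at each of these times. Jag2, a ligand, ran the other way, at 0.339 CPM in Sertoli-like and 6.62 CPM in germ cells at 0 h, at 0.399 and 22.1 CPM at 144 h, and at 2.22 and 20.3 CPM at 350.4 h, for ratios of 0.0512, 0.0181 and 0.110. Jag1 was likewise lower in Sertoli-like cells at the 3 times, with ratios of 0.197, 0.0735 and 0.103; the call at 144 h was just lost with the 10% limit, at a log2 ratio of -0.98. The germ cell levels of Jag1, 8.27, 10.4 and 6.18 CPM, were near the 9.27 CPM of red-blood-cell-like cells at 0 h, whereas those of Jag2 were above their 3.97 CPM. That gauge comes from the 0 h library alone. Within the 144 h library Sertoli-like clusters 28, 31 and 18 held Jag1 at 0.19, 0.27 and 2.08 CPM. At 350.4 h cluster 29 had 0 Jag1 UMIs and cluster 34 held it at 2.52 CPM. The part of free RNA in the germ cell levels was not tested. Dll1, a further ligand, had 0 UMIs in Sertoli-like cells against 32 in germ cells at 144 h.

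Hes1 was at 47.2 CPM in Sertoli-like cells against 71.8 CPM in germ cells at 0 h, inside 2-fold at 0.658, and its order turned round later. It was 5.02-fold higher in Sertoli-like cells at 144 h, with 149 against 29.6 CPM, and 28.2-fold higher (25.01 to 31.9) at 350.4 h, with 189 against 6.71 CPM. Hey1 was lower in Sertoli-like cells at 0 h, with 0.407 against 11.0 CPM and a ratio of 0.037, and inside 2-fold at 144 and 350.4 h, at 0.793 and 1.25. Notch2 ratios were 2.30, 4.42 and 4.06 at the 3 times, the first of them resting on a Sertoli level at background and lost when each cell weighed the same, at a log2 ratio of 0.81. Notch3 had 2 UMIs in Sertoli-like cells against 53 in germ cells at 144 h, a ratio of 0.0668. Lfng was higher in Sertoli-like cells at 0 h, at 4.58 (3.35 to 6.38), and at 1.37 at 144 h. Rbpj stayed inside 2-fold, at 1.04, 0.597 and 0.615.

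In counts, 6 of 8 members were past 2-fold between Sertoli-like and germ cells at 0 h (3 higher, 3 lower), 7 of 10 at 144 h (3 higher, 4 lower) and 5 of 7 at 350.4 h (3 higher, 2 lower). Over all measured genes 52.7% were past 2-fold at 0 h (22.3% higher, 30.4% lower), 63.9% at 144 h (22.4% and 41.5%) and 54.8% at 350.4 h (17.8% and 37.1%), and the members' counts are to be read against those shares. At 556.8 h Rbpj was the single member measured by the pooled rule, at 50.1 CPM in Sertoli-like cells against 12.5 CPM in germ cells, a ratio of 4.02 (3.11 to 5.11), with 59.9% of all genes past 2-fold (21.0% higher, 38.9% lower). Hes1 had 154 UMIs in 53 Sertoli-like cells against 166 UMIs in 8026 germ cells at that time, or 110 against 1.56 CPM, and Notch1 had 22 against 45 UMIs. Those germ cells were mostly past the early meiotic stage, where most members were near 0.

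**Figure D3:**
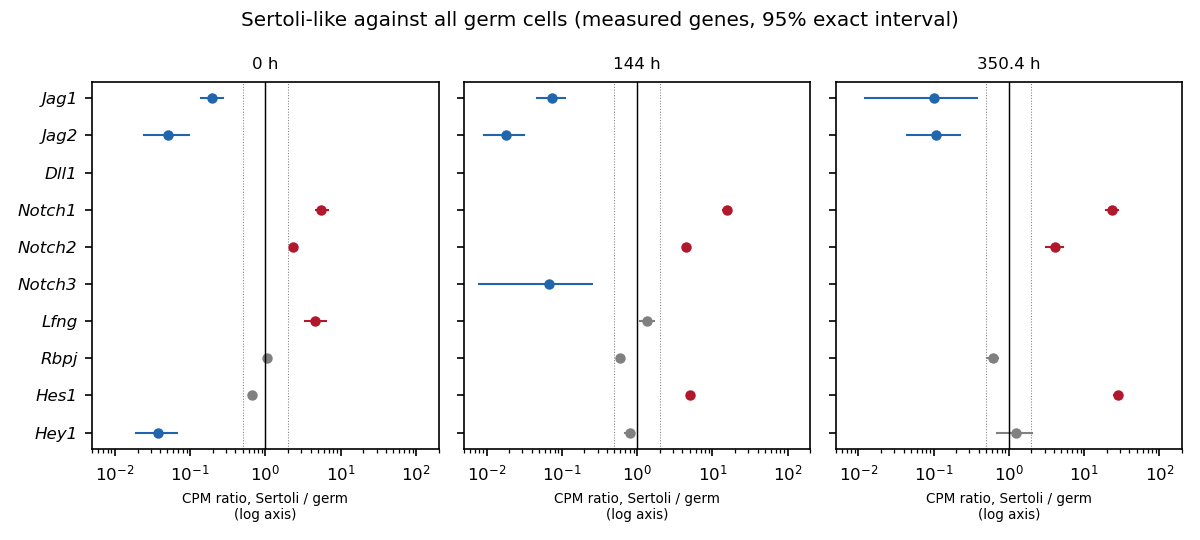
Ratio of CPM in Sertoli-like cells over all germ cells (x axes, log scale, 95% exact intervals as bars) for each measured Notch gene (y axes) at 0, 144 and 350.4 h; red and blue points are past 2-fold higher and lower, grey points are not, and dotted lines mark 2-fold. Notch1 lies to the right at every time (5.55, 15.6 and 23.4) and Jag2 to the left (0.0512, 0.0181 and 0.110), while Hes1 crosses from 0.658 at 0 h to 28.2 at 350.4 h; Dll1, with 0 UMIs in Sertoli-like cells at 144 h, has no point.

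Among the staged germ classes the ligand Jag2 was highest in differentiating-spermatogonia-like cells. It was at 6.53, 6.70 and 7.69 CPM in undifferentiated-spermatogonia-like cells at 0, 144 and 350.4 h, and at 16.7, 31.3, 23.4 and 47.8 CPM in differentiating ones at 144, 350.4, 556.8 and 763.2 h. In early-meiotic-like cells it was at 3.69, 13.7 and 17.7 CPM at the last 3 times, and in pachytene-or-later-like cells at 1.26 and 1.71 CPM at 556.8 and 763.2 h. Differentiating against undifferentiated cells, Jag2 was 2.49-fold higher (1.92 to 3.28) at 144 h and 4.08-fold higher (2.47 to 7.21) at 350.4 h. Germ cells without a stage are left out of this ranking. At 144 h they were 1697 of 2619 germ cells, and 1543 of them were in cluster 26, which had Stra8 as its leading gene. The Jag2 level over all germ cells at 144 h, given above, exceeded that of both spermatogonia-like classes.

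Jag1 had 2 high points along the germ line, and the one in spermatogonia passed 2-fold at 144 h but not at 350.4 h. Among spermatogonia Jag1 was 2.29-fold higher in differentiating than in undifferentiated cells at 144 h (1.715 to 3.10), with 12.75 against 5.57 CPM. The higher of these levels was not far above that of red-blood-cell-like cells at 0 h. Jag1 was near 0 in pachytene-or-later-like cells, at 0.533 and 0.633 CPM at 556.8 and 763.2 h. In elongating-spermatid-like cells it was at 12.5 and 13.6 CPM at those times, and at 763.2 h it was 4.20-fold higher there (3.35 to 5.265) than the 3.24 CPM of round-spermatid-like cells. Of the 5 members measured in that comparison 1 was higher and 2 lower (Hey1 at 0.3495 and Rbpj at 0.439), where 75.8% of all genes were past 2-fold (7.67% higher, 68.1% lower). Spermatids package their nuclei and lose most transcripts, so a CPM there is a share of what remains.

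Hes1 was lower in each later germ class up to early meiosis, at every time that held more than one of them. In undifferentiated-spermatogonia-like cells it was at 76.4, 67.8, 50.0 and 26.1 CPM at 0, 144, 350.4 and 763.2 h, the last from 12 UMIs in 32 cells, and in differentiating ones at 37.9, 19.9, 15.8 and 8.86 CPM at 144, 350.4, 556.8 and 763.2 h. In early-meiotic-like cells it had 0 UMIs of 635015 at 144 h and 2.95, 1.30 and 0.246 CPM after that. Differentiating against undifferentiated, its ratio was 0.560 at 144 h, inside 2-fold, and 0.398 (0.313 to 0.508) at 350.4 h, and early-meiotic against differentiating it was 0.0819 at 556.8 h. Hey1 was lower in the same step, at 0.182, and was 2.99-fold higher (1.68 to 5.88) in pachytene-or-later-like than in early-meiotic-like cells at 556.8 h, with 3.33 against 1.11 CPM.

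Rbpj was present at similar levels from spermatogonia to early meiosis and then lost. It was at 65.5, 70.8 and 68.7 CPM in undifferentiated cells at 0, 144 and 350.4 h, at 72.0 to 115.6 CPM in differentiating cells and at 53.5, 55.0, 74.9 and 77.7 CPM in early-meiotic-like cells at 144, 350.4, 556.8 and 763.2 h. In pachytene-or-later-like cells it was at 1.24 CPM against 74.9 CPM in early-meiotic-like cells at 556.8 h, a ratio of 0.0166 (0.0130 to 0.0210). This is the steepest step of any member along the germ classes compared here.

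The receptors were low in germ cells. Notch2 stood at 16.2, 20.3 and 12.0 CPM in undifferentiated cells at 0, 144 and 350.4 h, under the 0 h background, and Notch1 at 7.96, 8.87 and 5.29 CPM. Notch3 had 43 UMIs in differentiating against 6 in undifferentiated cells at 144 h, 4.07-fold higher (1.72 to 11.7), and Lfng was 2.72-fold higher (1.86 to 4.08) in the same comparison. Dll1 had at most 32 UMIs in all germ cells of any library.

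In counts, 4 of 10 members were past 2-fold between differentiating and undifferentiated cells at 144 h (all higher: Jag1, Jag2, Notch3 and Lfng) with 26.6% of all genes (9.71% higher, 16.9% lower), and 3 of 8 at 350.4 h (Jag2 and Lfng higher, Hes1 lower) with 31.9% (19.2% higher, 12.7% lower). At 556.8 h 4 of 6 were lower in early-meiotic than in differentiating cells, with 32.8% of all genes past 2-fold (13.1% higher, 19.7% lower), and 6 of 6 were past 2-fold between pachytene-or-later and early-meiotic cells (1 higher, 5 lower), with 60.4% of all genes (22.3% higher, 38.1% lower).

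**Figure D4:**
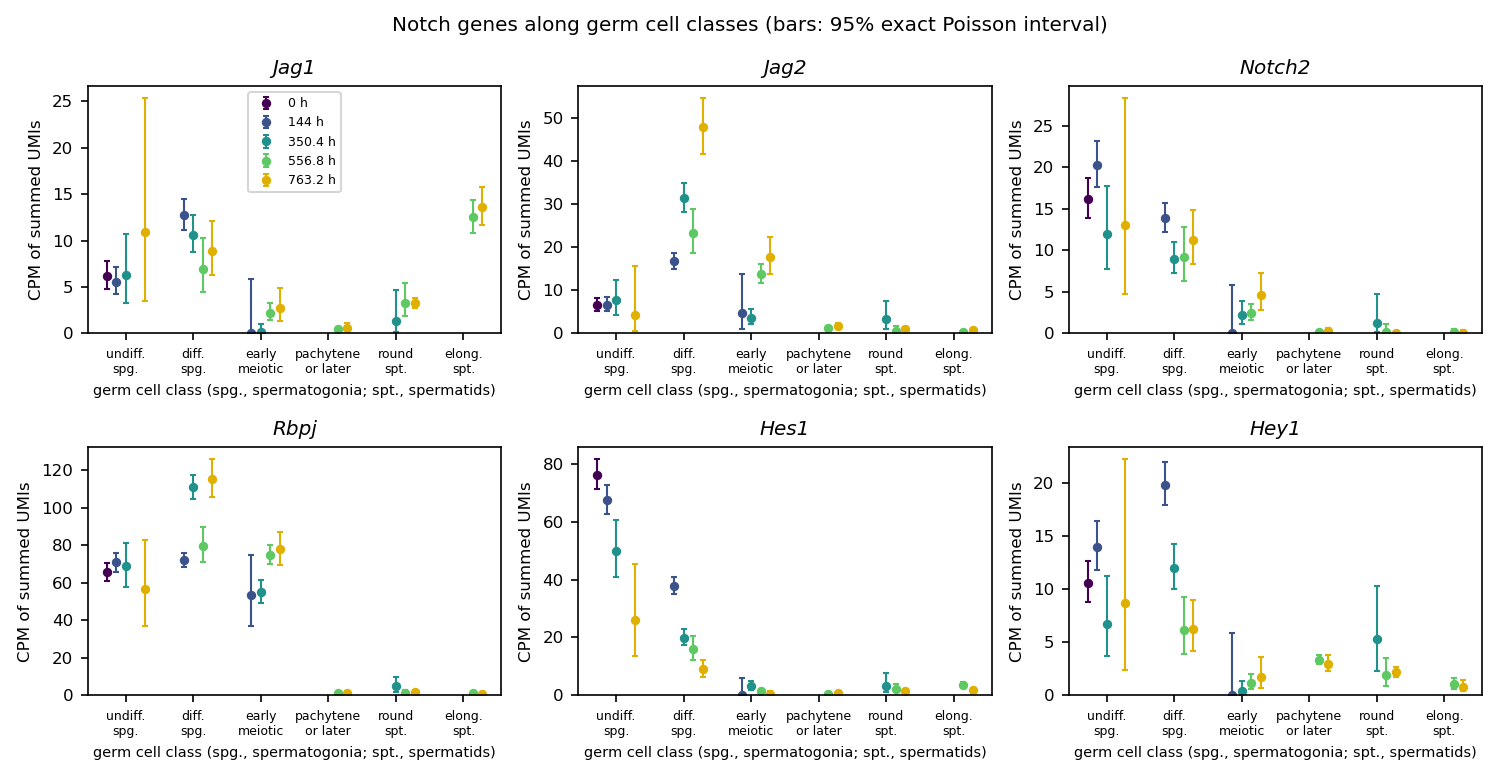
CPM of summed UMIs (y axes, 95% exact Poisson intervals as bars) of 6 Notch genes in staged germ cell classes in order of maturation (x axes), coloured by time. Germ cells without a stage are not shown. Jag2 is highest in differentiating spermatogonia (47.8 CPM at 763.2 h), Jag1 has a second rise in elongating spermatids (12.5 and 13.6 CPM), Hes1 is highest in undifferentiated spermatogonia (76.4 CPM at 0 h), and Rbpj is at 1.24 CPM in pachytene or later cells at 556.8 h.

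Between 0 and 144 h, undifferentiated-spermatogonia-like cells had 0 of 9 measured members past 2-fold, where 9.88% of all genes were (5.84% higher, 4.04% lower): Hes1 was at 67.8 against 76.4 CPM, a ratio of 0.887, and Hey1 at 13.97 against 10.6 CPM, a ratio of 1.32. Over all germ cells 3 of 10 members were past 2-fold, with 36.4% of all genes (16.9% higher, 19.6% lower). Jag2 was 3.34-fold higher, with 22.1 CPM at 144 h against 6.62 CPM at 0 h, Hes1 was lower at 0.412 and Notch2 at 0.374, the Notch2 call resting on a 0 h level of 35.9 CPM, under that of red-blood-cell-like cells, and being lost in cells of at least 5000 UMIs, at a log2 ratio of -0.39. The germ classes differed between these libraries: differentiating cells numbered 625 at 144 h against 4 at 0 h. At 0 h 1939 of the 2195 germ cells had no stage, with a median of 3205 UMIs, Notch2 at 60.1 CPM and Sertoli markers at a summed 1964 CPM, against 123 CPM in undifferentiated cells. The part of stage and of free RNA in the germ-wide differences was not tested.

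Interstitial classes kept their own members of the pathway. Notch3, the receptor of vascular mural cells, was above the 0 h background in peritubular-myoid-like cells, which contract to move fluid along the tubule, at 20.65, 8.83, 5.36, 12.6 and 11.4 CPM over the 5 times, from 75, 40, 6, 5 and 3 UMIs. At 144 against 0 h it was lower, at 0.427 (0.284 to 0.636). The Hes1 levels there were 109, 108, 107, 90.9 and 64.8 CPM and those of Jag1 18.2, 24.9, 14.3, 15.2 and 11.4 CPM. Notch3 was the 1 of 7 measured members past 2-fold, where 12.4% of all genes were (8.29% higher, 4.13% lower), and different clusters held most of the class (cluster 12 at 0 h, cluster 21 at 144 and 350.4 h, cluster 59 after that). In stromal-like cells Notch3 was also the single member of 8 past 2-fold, at 4.38 against 9.53 CPM and a ratio of 0.460 (0.272 to 0.748), with 13.3% of all genes past it (7.05% higher, 6.22% lower). That stromal call was lost with the 50% mitochondrial limit and when no doublets were removed.

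Leydig-like cells, which make testosterone, held Jag1 above the 0 h background. It was at 13.2 CPM at 144 h against 40.7 CPM at 0 h, a ratio of 0.325 (0.227 to 0.458). Notch1 (5 against 18 UMIs, 0.261) and Notch2 (10.4 against 36.4 CPM, 0.284) were lower too, but their 0 h levels were not above those of red-blood-cell-like cells, and the Notch1 call was lost when no doublets were removed, at a log2 ratio of -0.86. Of 5 members measured 3 were lower, with 14.4% of all genes past 2-fold (4.58% higher, 9.82% lower), and the median log2 ratio was -1.62 against -0.09 over all genes. The median depth of these cells was 19960 UMIs at 144 h against 5295 at 0 h, and the dissociation list was at 6184 CPM against 3939 CPM. Their part in the Leydig differences was not tested.

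Endothelial-like cells, in which Notch sets artery against vein, had 3 of 7 measured members higher at 144 than at 0 h, with 23.6% of all genes past 2-fold (12.4% higher, 11.2% lower). Jag1 was at 158 against 23.2 CPM, a ratio of 6.83 (3.58 to 14.6), and Hes1 at 215 against 71.9 CPM, a ratio of 2.99 (2.02 to 4.55). Hey1 had 45 UMIs at 144 h against 1 at 0 h, a ratio of 27.4 with an interval of 4.68 to 1107. Notch1 was inside 2-fold, at 161 against 135 CPM, and Notch2 had 0 UMIs against 11. These sums rest on 56 cells at 144 h and 52 at 0 h. The 0 h class changed with the setting. It held 16 cells at resolution 1, 16 with the 10% mitochondrial limit and 20 with the 50% limit, against 50, 46 and 55 at 144 h. With the 50% limit and resolution 1 together it held 213 cells, against 56 at 144 h. The endothelial ratios were not recomputed with these cells. Endothelial markers summed to 8732 CPM at 144 h against 3868 CPM at 0 h, and Sertoli markers, a sign of RNA from other cells, to 909.7 CPM against 2079 CPM. Their part in the endothelial differences was not tested.

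**Figure D5:**
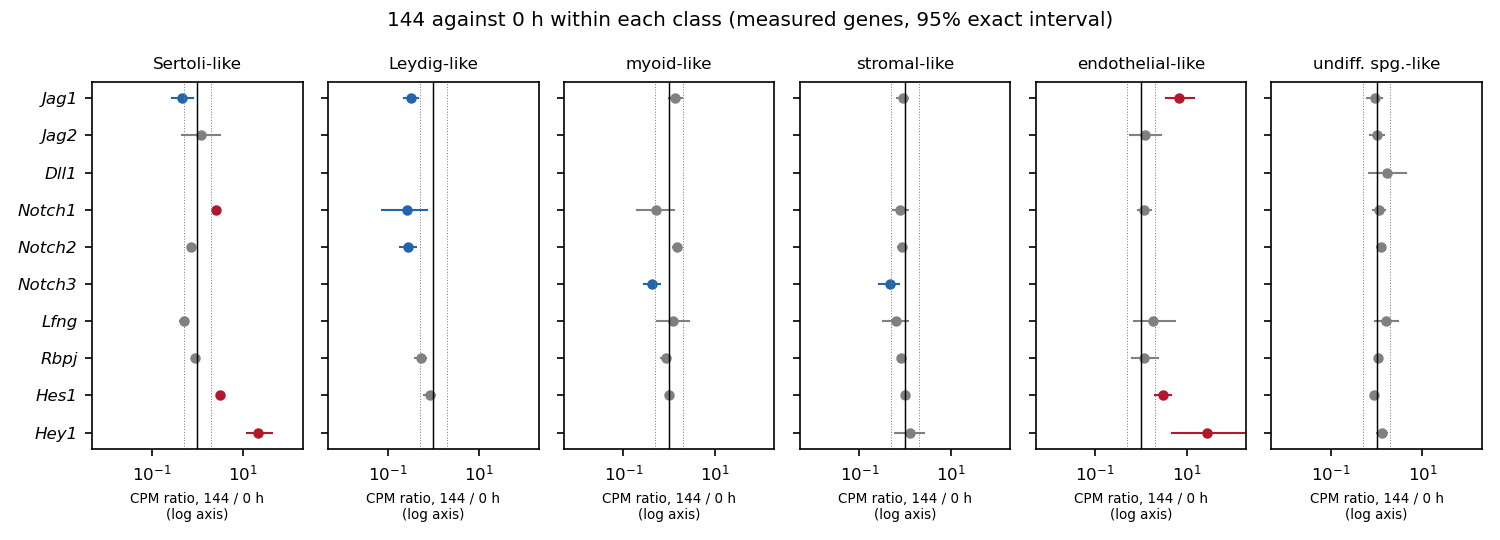
Ratio of CPM at 144 h over 0 h (x axes, log scale, 95% exact intervals as bars) for each measured Notch gene (y axes) in 6 classes; red and blue points are past 2-fold higher and lower, grey points are not, and dotted lines mark 2-fold. Hes1 and Hey1 are higher in Sertoli-like (3.15 and 21.3) and endothelial-like cells (2.99 and 27.4), Notch3 is lower in myoid-like and stromal-like cells (0.427 and 0.460), and no point in undifferentiated spermatogonia is past 2-fold; the endothelial Hey1 interval runs past the axis to 1107.

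A small unnamed cluster led by Rgs5, a gene of the mural cells around vessels, held the highest Notch3 level of any sum examined. Its 23 cells at 144 h had 49 Notch3 UMIs, or 286 CPM, and its 35 cells at 0 h had 6 UMIs, or 63.5 CPM. Notch2 was at 245 and 222 CPM and Hes1 at 245 and 148 CPM in it at 144 and 0 h. Heyl, a target of the Hey family, was at 128.5 against 10.6 CPM. The mural markers themselves summed to 6434 CPM at 144 h against 1270 CPM at 0 h, and their part in these differences was not tested. Among macrophage-like cells Rbpj was at 84.8, 109, 280 and 150 CPM at 0, 144, 350.4 and 556.8 h, from 67, 53, 59 and 21 UMIs. The largest unnamed cluster, cluster 0 with 1564 cells at 0 h, held Sertoli markers at a summed 10950 CPM beside stromal ones at 2883 CPM, with Notch2 at 171, Hes1 at 55.4 and Notch1 at 24.2 CPM. Unnamed clusters 27 and 51, mostly of the 556.8 and 763.2 h libraries, held Sertoli markers at 5402 and 7136 CPM. Their highest marker scores were those of germ cells. Cluster 27 scored 0.883 for pachytene or later spermatocytes and 0.093 for Sertoli cells, and cluster 51 scored 1.094 for round spermatids. They held Hes1 at 13.1 and 14.8 CPM and Notch1 at 3.28 and 5.43 CPM, which are not read as levels of Sertoli cells.

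A list of 52 other Notch pathway genes, covering further ligands, receptor processing, ligand endocytosis, cofactors and targets, was read in Sertoli-like cells. The list and its counts also include Gdnf and Cyp26b1, taken in as genes reported to lie below Notch in Sertoli cells. At 144 against 0 h 46 were measured, 2 were higher and 10 lower, with a median log2 ratio of -0.19, where 11.8% of all measured genes were higher and 18.0% lower, with a median of -0.06. The 2 higher were Dll3, a ligand that dampens Notch within its own cell, at 3.02 (2.37 to 3.88), and Hey2, a relative of Hey1, at 8.18 (2.495 to 42.3) from 25 against 3 UMIs. Among the lower were the fringe enzyme Mfng at 0.0350 (0.0333 against 0.9495 CPM) and the ligand-endocytosis gene Neurl1b at 0.0241 (0.0998 against 4.14 CPM). The non-canonical ligand Dlk1 was lower at 0.0759 (1.30 against 17.1 CPM) and the receptor inhibitor Numbl at 0.382. So were the receptor Notch4 at 0.348 and the targets Hes5 at 0.343 and Heyl at 0.272 (1.76 against 6.48 CPM). These levels were not set against red-blood-cell-like cells, and the part of free RNA in the ratios was not tested. Gdnf, the stem cell factor, was lower at 0.405, with 14.55, 5.89, 6.35 and 3.58 CPM over the 4 times. Nrarp, a target that feeds back on the receptor, and Cyp26b1, an enzyme that breaks down retinoic acid, stayed inside 2-fold at 1.18 and 0.644, and 0 of the 10 receptor cleavage genes passed 2-fold.

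At later times 3 of 38 and 4 of 35 measured pathway genes were past 2-fold in Sertoli-like cells, where 18.5% and 21.1% of all genes were. Of 38 measured at 350.4 against 144 h, Dll3 at 3.86 (3.07 to 4.82) and Dtx3 at 2.58 were higher and Nrarp at 0.2665 was lower. Of 35 at 556.8 against 350.4 h, Aph1c, a subunit of the receptor-cutting complex, at 7.14 and Dtx2 were higher, and Poglut1 and Numbl were lower. Dll3 was at 35.6 and 43.0 CPM in Sertoli-like cells at 350.4 and 556.8 h, against 76.0 and 113 CPM in germ cells. RNA of a spermatid gene list summed to 1.76, 0.832, 345 and 7149 CPM in Sertoli-like cells at 0, 144, 350.4 and 556.8 h. Its part in the later Dll3 and Aph1c ratios was not tested.

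In interstitial classes the same 52 genes were counted at 144 against 0 h. In Leydig-like cells 0 were higher and 4 lower of 38 measured, where 4.58% of all genes were higher and 9.82% lower. In peritubular-myoid-like cells 3 were higher and 1 lower of 40, where 8.29% and 4.13% of all genes were. In stromal-like cells 2 were higher and 2 lower of 41, where 7.05% and 6.22% were, and in endothelial-like cells 7 were higher and 1 lower of 29, where 12.4% and 11.2% were. Endothelial-like cells held Dll4, the ligand of sprouting vessels, at 90.55 against 65.0 CPM, inside 2-fold, and the vessel receptor Notch4 at 93.4 against 37.1 CPM, 2.515-fold higher (1.44 to 4.65), with Mfng 2.29-fold higher (1.55 to 3.47). In peritubular-myoid-like cells Cyp26b1 was 2.19-fold higher (2.08 to 2.30), at 1199 against 548 CPM, and in Leydig-like cells it was lower at 0.499, near the 2-fold line. Heyl was lower in stromal-like cells at 0.270 (0.169 to 0.415) and inside 2-fold in peritubular-myoid-like cells, at 84.1 against 116 CPM. Dlk1, a marker of immature interstitial cells, was lower in Leydig-like cells at 0.236 and in peritubular-myoid-like cells at 0.189.

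Genes with the most similar pattern were found over 43 sums of a class at a time, by Pearson's correlation of log2(CPM + 10). The closest to Notch1 were Cbfa2t3 (r = 0.917) and Arhgap31 (0.916), and Cbfa2t3 was also the closest to Lfng (0.876). The closest to Notch3 was Lox (0.938), to Jag2 Rhox13 (0.859), to Rbpj Tbc1d10b (0.941), to Hes1 Pdcl3 (0.905), to Notch2 Pdlim4 (0.894), to Jag1 Caskin2 (0.845) and to Hey1 St6galnac3 (0.799). Dll1, which reached at most 6.96 CPM, was closest to Wscd1 (0.959). Sums of 1 library share their free RNA and the classes were defined on the same cells, so these are descriptions.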

How the data were processed

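Each of the 5 libraries was deposited as a matrix of UMI counts per gene and barcode that, per the file headers, the authors made with Cell Ranger 3.0.2. The submitters' processing notes name mm10 and Seurat 4.3.0.1, and settings for alignment and cell calling were not given in the sources used here. Barcodes with at least 1000 UMIs, 500 genes and under 20% mitochondrial UMIs were kept, and barcodes with a Scrublet score over 0.25 were removed as doublets (scanpy 1.11.5, expected rate 0.08, since the automatic threshold marked almost none in some libraries). Cells were clustered on 3000 variable genes without the Notch genes (40 components, 15 neighbours, Leiden resolution 2 with python-igraph 0.11.9, 63 clusters). Clusters were named from marker lists by a mean score of at least 0.75, a lead of 0.25 and 3 markers of at least 20 CPM. These thresholds, and a looser rule for germ cells without a stage, were set after seeing the clusters. Raw counts were summed per class and library, and ratios of CPM have exact conditional binomial intervals at 95% (scipy 1.17.1). A count of 0 is taken as 3 counts in the log2 ratios behind the 2-fold calls, their counts and the medians, while intervals use the count itself. Libraries shared between 11 and 37 barcodes (0.148% to 0.453% of the smaller). Genes named for a like pattern reached 50 CPM in some sum and were compared over sums of at least 200000 UMIs. The members and gene lists were chosen with earlier results of these data known. Settings varied were the mitochondrial limit, depth, doublets, resolution, free RNA, scaling, cell weight and the minimum for measuring. All 10 members are named. Of the pathway lists, genes are named whose interval lies wholly past 2-fold in Sertoli-like cells, at most 8 per comparison, with Gdnf, Cyp26b1, Hes5, Heyl, Dll4, Notch4 and Nrarp in any case; Dtx2, Poglut1, and Mfng and Dlk1 in interstitial classes were named after their values were seen.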

Additional observations from a re-analysis of the deposited data

Results flagged for a closer look

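Notch1 at 144 against 0 h was higher in Sertoli-like cells, at a ratio of 2.57, and lower in Leydig-like cells, at 0.261, where it rested on 5 against 18 UMIs and a 0 h level not above background. Hes1 in the same comparison was higher in Sertoli-like cells, at 3.15, and lower over all germ cells, at 0.412, and in undifferentiated-spermatogonia-like cells alone its ratio was 0.887. Both were picked out because the same gene moved in opposite directions in 2 cell types. With 1 library per time the difference between cell types was not tested.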

How the results depend on the processing

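No paired analysis was possible because each time has 1 library. Of 34 member values past 2-fold, 25 stayed past it in every alternative in which the member was still measured, and 9 did not in at least one. An alternative that left a member unmeasured does not count as a loss here. For Sertoli-like against germ cells at 350.4 h, Jag1, Notch1, Notch2 and Hes1 each had a value in 9 alternatives, and Jag2 in 10. Of 106 counts recomputed over 11 comparisons, 89 stayed within 1.5 times the reported count. No alternative was tried for the steps between germ classes or for undifferentiated-spermatogonia-like and endothelial-like cells at 144 against 0 h. The same holds for Sertoli-like cells at 763.2 against 0 h and against germ cells at 556.8 h. With a 10% mitochondrial limit, members past 2-fold numbered 2 for Sertoli-like cells at 144 against 0 h (4 reported) and 2 for Sertoli-like against germ cells at 350.4 h (5 reported), Jag1 at 144 against 0 h in Sertoli-like cells turned to a log2 ratio of 0.80 (-1.09 reported), and Notch1 there was at 0.98. With a 50% limit they numbered 4 for Sertoli-like cells at 350.4 against 144 h (2 reported), 1 at 556.8 against 350.4 h (2 reported) and 0 for stromal-like cells (1 reported). With each cell weighing the same they numbered 4, 1 and 2 in those 3 comparisons, and 2 for peritubular-myoid-like cells (1 reported), which also gave 2 with at least 5000 UMIs per cell, with free RNA subtracted and with median-of-ratios scaling. With no minimum they numbered 1 for Sertoli-like cells at 763.2 against 556.8 h (0 reported), 8 for Sertoli-like against germ cells at 350.4 h, 5 for Leydig-like cells (3 reported) and 2 for stromal-like cells. With free RNA subtracted they numbered 5 over all germ cells at 144 against 0 h (3 reported). The cause was not tested. Before scaling, genes with at least 10 UMIs in both sums had median log2 ratios of -0.30 and -0.25 between Sertoli-like and germ cells at 144 and 350.4 h. In peritubular-myoid-like and stromal-like cells these medians were 0.14 and 0.13. Median-of-ratios scaling takes this median off every log2 ratio, and so moved them by the same size in the opposite direction. A 10% limit gave no value for Sertoli-like cells at 556.8 against 350.4 h, nor resolution 1 for peritubular-myoid-like cells, since under 20 cells were left. Jag1, Jag2, Dll1, Notch3, Hey1 and Lfng had few UMIs in Sertoli-like cells at 350.4 and 556.8 h, between 0 and 16 each.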
